A study of Mus musculus with 2 samples.

Results

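The 10 alpha and beta tubulin genes Tuba1a, Tuba1b, Tuba4a, Tubb2a, Tubb2b, Tubb3, Tubb4a, Tubb4b, Tubb5 and Tubb6 were read in the left cerebral cortex of 2 mice. They were chosen by symbol, 3 alpha and 7 beta genes among 55536 annotated genes. The rule used no measured value, but earlier results of these data were known when it was set. All 10 averaged at least 10 counts. The tissue came from adult males, 8 to 10 months old, of B6CASTF1/J, which per the labels crosses B6 with Cast, and the labels name no further allele and no agent. Both mice form 1 group, so no condition was compared. The labels number them as animals 2 and 4 but carry 1 donor label for both, and each SD here treats them as separate animals. Libraries were made from 300 ng of total RNA with ribosomal RNA reduced and spike-ins added, and are called replicate 1 and replicate 2. They held 26925514 and 30143684 expected counts. TPM is a transcript abundance normalised for transcript length and library total, and ± marks the SD over the 2 animals (n = 2). With 2 animals an exact sign-flip test cannot give a p below 0.5, so none is printed.

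Microtubules are hollow filaments built from heterodimers of an alpha and a beta tubulin, and in neurons they carry cargo along axons and dendrites and hold the shape of both. Several genes encode each subunit, and their products, called isotypes, differ mainly in an acidic carboxy-terminal tail on the outer surface of the filament, where motors, severing enzymes and modifying enzymes bind. Tuba1a is the major alpha isotype of developing and mature neurons, Tubb3 is a standard marker of neurons, Tubb4a is high in brain and in myelinating oligodendrocytes, and the human counterparts of Tuba1a and Tubb2b are mutated in malformations of the cortex.

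On mm10 the alpha genes are annotated as Tuba1a at chr15:98949837-98953703 (minus strand), Tuba1b at chr15:98931425-98934565 (minus strand) and Tuba4a at chr1:75214228-75219865 (minus strand). Of the beta genes, the annotation places Tubb2a at chr13:34074274-34078007 (minus strand), Tubb2b at chr13:34126748-34130466 (minus strand), Tubb3 at chr8:123411424-123422015 (plus strand), Tubb4a at chr17:57080066-57087782 (minus strand), Tubb4b at chr2:25222160-25224702 (minus strand) and Tubb5 at chr17:35833921-35838306 (minus strand). The transcripts used for coding sequence have 4 exons in all 10 genes.

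Alpha and beta tubulins carry their acidic tail at the end of the coding sequence, so the last 20 codons before the stop are shown for Tuba4a, the alpha isotype made without the terminal tyrosine that enzymes remove from and restore to other alpha tubulins. The final codon is in capitals. The sequence was read from GENCODE M21 transcripts (GRCm38, mm10), as were those that follow, and runs 5′ to 3′ on the coding strand, here the minus strand. It lies at chr1:75215625-75215684, within 1 exon.
Tuba4a: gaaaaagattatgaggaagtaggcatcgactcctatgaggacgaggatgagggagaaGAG
Tuba4a ends in a glutamate codon, GAG, and 12 of its 20 codons encode an acidic residue. Tuba1a and Tuba1b lie 15271 bases apart on chromosome 15, and their coding sequences differed at 23 of 1353 positions. Only 2 of their 451 codons encode different amino acids.

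The authors deposited 2 quantifications, the second made from the reads rather than from alignments. Values below are from the first where no table is named.

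The beta tails are shown because the isotypes are known to differ most there, with the codons for the acidic residues aspartate and glutamate in capitals. They lie at chr13:34074471-34074530, chr13:34127474-34127533, chr8:123421620-123421679, chr17:57080693-57080752, chr2:25222311-25222370 and chr17:35834985-35835044, in the order of the lines, on the plus strand for Tubb3 and the minus strand for the others.
Tubb2a: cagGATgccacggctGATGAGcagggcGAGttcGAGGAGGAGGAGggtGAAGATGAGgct
Tubb2b: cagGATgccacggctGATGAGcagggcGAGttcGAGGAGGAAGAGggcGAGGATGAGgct
Tubb3: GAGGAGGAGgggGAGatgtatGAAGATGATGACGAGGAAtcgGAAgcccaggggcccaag
Tubb4a: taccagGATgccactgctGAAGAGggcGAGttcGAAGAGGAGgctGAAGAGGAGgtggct
Tubb4b: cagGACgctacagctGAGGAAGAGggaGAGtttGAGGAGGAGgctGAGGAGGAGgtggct
Tubb5: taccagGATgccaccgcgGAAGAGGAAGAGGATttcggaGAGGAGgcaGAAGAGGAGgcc
Of the 20 codons, 10 were acidic in Tubb4a and 11 in each of the other 5 shown. Tubb2a and Tubb2b, 48740 bases apart on chromosome 13, matched at 96.5% of aligned coding positions, and 2 of their 445 codons encode different amino acids. Tubb4a and Tubb4b, on different chromosomes, matched at 83.2% of coding positions although 7 of 445 aligned codons encode different amino acids or lack a partner. Across the beta members, pairs matched at 80.3% to 96.5% of coding positions, and across the alpha members at 84.8% to 98.3%. Alpha against beta pairs matched at 55.9% to 58.4%.

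The first 4 codons are shown because the factor encoded by Ttc5 recognises that stretch of the nascent chain when tubulin mRNAs are degraded in cells with excess soluble tubulin. The codons after the start codon are in capitals, and Tuba1b has the same 12 bases as Tuba1a and Tubb4b the same as Tubb3. In the alpha genes an intron interrupts the stretch, and in the beta genes it lies within 1 exon, at chr13:34077918-34077929, chr13:34130222-34130233, chr8:123411606-123411617, chr17:57087502-57087513 and chr17:35838042-35838053 for those listed. The alpha stretches span chr15:98951683-98953453 and chr1:75217426-75219195 with the intron included.
Tuba1a: atgCGTGAGTGC
Tuba4a: atgCGCGAGTGC
Tubb2a: atgCGCGAGATC
Tubb2b: atgCGAGAGATC
Tubb3: atgAGGGAGATC
Tubb4a: atgCGGGAAATC
Tubb5: atgAGGGAAATC
The alpha and beta lines differ in the last of the 4 codons, TGC in alpha and ATC in beta. Ttc5 itself stood at 22.7 and 25.4 TPM.

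Tubulin mRNA in these cortices was led by Tuba1a, and 9 of the 10 genes were abundant. Tuba1a had 402 and 434 TPM in replicates 1 and 2, with 12048 and 14144 expected counts. At 418 ± 22.4 TPM it ranked 93 among 22028 protein-coding genes. Next above it stood Ppp3ca, a catalytic subunit of the phosphatase calcineurin, at 422 ± 27.2 TPM, and next below Rps15, a ribosomal protein gene, at 415 ± 26.0 TPM, and all 3 ranges overlapped. Tuba4a had 273 and 276 TPM, and Tuba1b, a broadly used alpha isotype, had 250.4 and 258 TPM. Neither overlapped Tuba1a, and every value of Tuba4a lay above those of Tuba1b, though by 1.08-fold in the means.

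Of the beta genes, Tubb2a was highest at 301 and 307 TPM, and it ranked 174. It lay between Pld3, of the phospholipase D family, at 305 ± 7.50 TPM and Stmn3, which encodes a tubulin-binding protein of the stathmin family, at 304 ± 12.2 TPM. Tubb4a followed at 253 and 279 TPM, and Tubb5, the beta isotype shared by most tissues, at 197 and 211 TPM. Tubb3 had 163 and 175 TPM, and Tubb4b, a widely expressed isotype that also serves in cilia, had 159 and 156 TPM. Tubb2b had 80.3 and 72.7 TPM, below its neighbour Tubb2a by a ratio of Tubb2a to Tubb2b of 3.75 and 4.23. Tubb6 was the lowest, at 0.65 and 0.72 TPM from 19 and 23 counts. The mean of Tubb2b was 112-fold that of Tubb6 and that of Tuba1a was 5.46-fold that of Tubb2b, both per length.

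Ordered by mean TPM, the 10 genes gave 9 neighbouring pairs, and in 7 of them the values of the 2 animals did not overlap. Tuba4a and Tubb4a overlapped and changed places between the animals. Tubb4a and Tuba1b also overlapped but kept their order in both. The separation depended on the quantification. By the second one's TPM, 2 of 9 neighbouring pairs were apart, against 7 of 9 by the first, and 7 of 9 were apart in the second once it was rescaled over protein-coding genes alone. Within the beta family 2 of 6 pairs were apart by the second and all 6 by the first. Within the alpha family 0 of 2 were apart by the second and both by the first. After the same rescaling of the second, 5 of 6 beta pairs and 1 of 2 alpha pairs were apart. In bulk tissue, fewer cells of a type and less RNA per cell cannot be told apart.

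**Figure D1:**
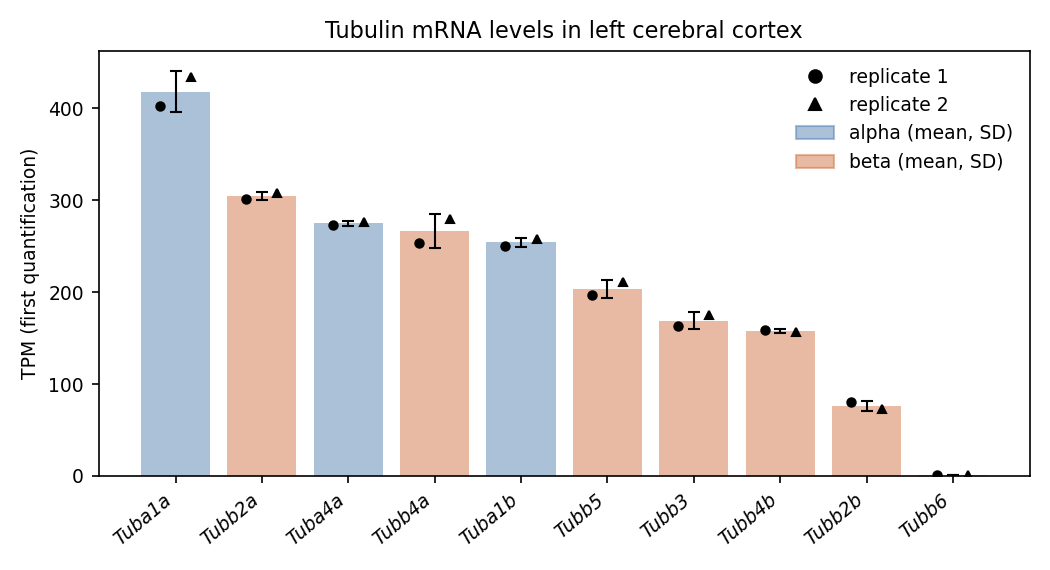
TPM of the 10 tubulins by the first quantification (vertical axis) for each gene (horizontal axis), ordered by mean. Bars are means and error bars the SD over 2 animals, circles are replicate 1 and triangles replicate 2. Tuba1a stands highest at 418 ± 22.4 TPM, 8 genes lie between 76.5 and 304 TPM, and Tubb6 is at 0.685 TPM.

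Summed over the 10 genes, tubulin mRNA came to 2079 and 2170 TPM (2124 ± 63.9), or 0.208% and 0.217% of all TPM. The 3 alpha genes gave 925 and 968 TPM and the 7 beta genes 1154 and 1202 TPM. Beta mRNA was therefore 55.5% and 55.4% of the sum in the 2 animals (55.4% ± 0.0674), at 1.25 and 1.24 times the alpha sum. Within the alpha family Tuba1a held 44.1% ± 0.976, Tuba4a 29.0% ± 0.662 and Tuba1b 26.8% ± 0.313. Within the beta family Tubb2a held 25.8% ± 0.403, Tubb4a 22.6% ± 0.919, Tubb5 17.3% ± 0.350, Tubb3 14.3% ± 0.328, Tubb4b 13.4% ± 0.551 and Tubb2b 6.50% ± 0.645. Tubb6 held 0.0581% ± 0.00252. When the TPM of processed pseudogenes that share tubulin sequence was added to the family they copy, a setting chosen after the values were seen, the beta share was 50.3% and 49.5% in the 2 animals (49.9% ± 0.585), so with them neither family was higher in both.

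The remaining tubulin genes added little. Among the other alpha and beta genes Tuba1c was highest, at 26.2 and 18.9 TPM, and Tuba8 had 5.05 and 6.23 TPM. Tubb1, the isotype of platelets, had 4 and 0 counts by the first quantification. Tuba3a, Tuba3b and Tubal3 had 0 in both libraries by it, which allows up to 3 counts. In the second, Tubal3 had 8.56 and 8.09 estimated counts, and Tuba3a and Tuba3b had 0. Of the gamma, delta and epsilon tubulins, which nucleate microtubules or serve centrioles, Tubg2 was highest at 22.7 and 26.6 TPM and Tube1 lowest at 1.33 and 0.95 TPM.

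Several members share stretches of sequence with other genes, so a read there has more than 1 possible source. In windows of 101 bases along the leading transcript, the length that the effective lengths of the first tables imply for a read, 69.4% of Tuba1b and 65.0% of Tuba1a matched another gene exactly, each matching 11 other genes. Tubb2a shared 36.7% of its windows, Tubb4b 28.8% and Tubb2b 27.6%. Tuba4a, Tubb3, Tubb4a, Tubb5 and Tubb6 shared none of this length, and in windows of 31 bases they shared from 1.87% (Tubb4a) to 5.16% (Tuba4a). At 31 bases Tuba1a shared 77.0%, Tuba1b 75.4%, Tubb4b 64.6%, Tubb2a 56.4% and Tubb2b 45.9%. The deposited posterior SD of the count, the uncertainty of assigning reads within a library, followed the division at 101 bases. It was 80.1 and 88.1 counts for Tuba1b, 64.7 and 69.5 for Tuba1a, and between 32.6 and 32.7 for Tubb2a and Tubb2b in both libraries. It was 12.4 and 11.4 for Tubb4b, at most 0.49 for Tubb4a and 0 for Tuba4a, Tubb3, Tubb5 and Tubb6. As a percentage of the count it did not pass 1.13%.

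The 12 processed pseudogenes that shared such a window were therefore examined, 8 copies of alpha and 4 of beta. The second quantification, which the authors made per transcript from the reads, gave the alpha copy Gm14150 (chromosome 2) 397 and 35.9 estimated counts, against 2692 and 3386 expected counts in the first. The alpha copy Gm3226 (chromosome 13) had 1673 and 2453 counts in the second, against 1949 and 2654 in the first. Gm6682 had 323 and 403 in the second, against 385 and 443 in the first, and Gm5620 had 20.7 and 27.2, against 23.0 and 27.7. Of the beta copies, Tubb4b-ps1 had 372 and 356 counts in the second, against 323 and 268 in the first. Gm16165 had 24.9 and 41.0, against 19.6 and 41.7. The 8 alpha pseudogenes summed to 8.07% and 8.58% of the counts of the 3 alpha members in the second quantification, against 18% and 20.4% in the first. For the 4 beta pseudogenes these shares were 1.23% and 1.08%, against 0.924% and 0.719%.

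Between the quantifications the counts of Tuba1b moved most among the 10. Its second count was 8995 and 10356, against 7212 and 8060 in the first, a ratio of 1.25 and 1.28. Tuba1a went the other way, with 11678 and 13534 in the second, against 12048 and 14144 in the first, a ratio of 0.969 and 0.957. Together, Tuba1a, Tuba1b, Tuba1c and the 8 alpha pseudogenes held 23690 and 27327 counts in the second, against 25172 and 29410 in the first. The pseudogenes held 10.2% and 10.8% of those counts in the second, against 20.1% and 22.2% in the first. The members that shared no window had count ratios between 1.00 and 1.07, and those of Tubb2a, Tubb2b and Tubb4b lay between 0.873 and 0.969.

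**Figure D2:**
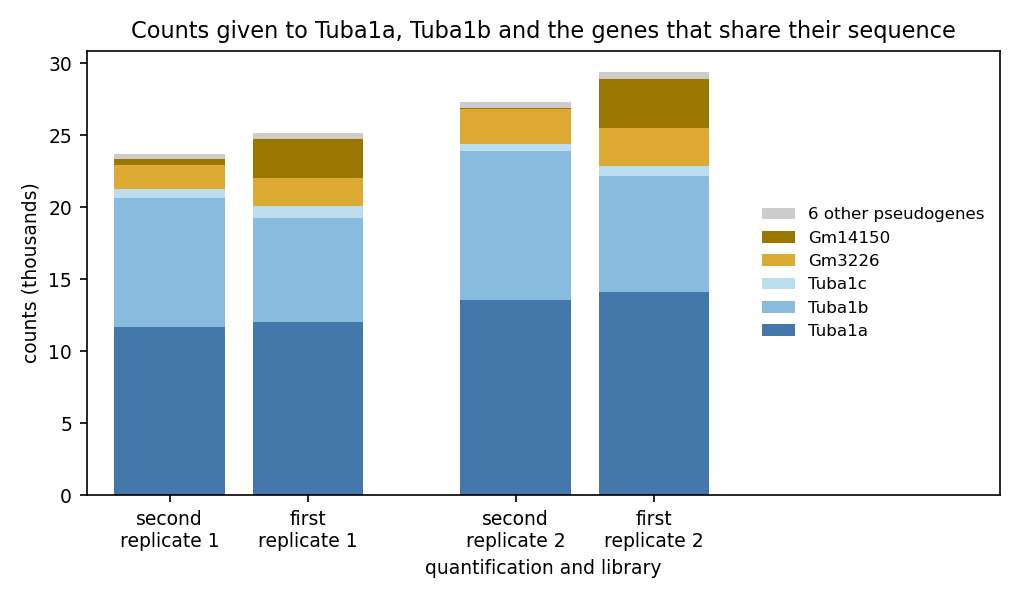
Counts, in units of 1000 (vertical axis), given to Tuba1a, Tuba1b, Tuba1c and alpha pseudogenes by the second and the first quantification in each library (horizontal axis), stacked. The Gm14150 segment is 397 and 35.9 counts in the second quantification, against 2692 and 3386 in the first, and the Tuba1b segment is taller in the second in both libraries.

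**Figure D3:**
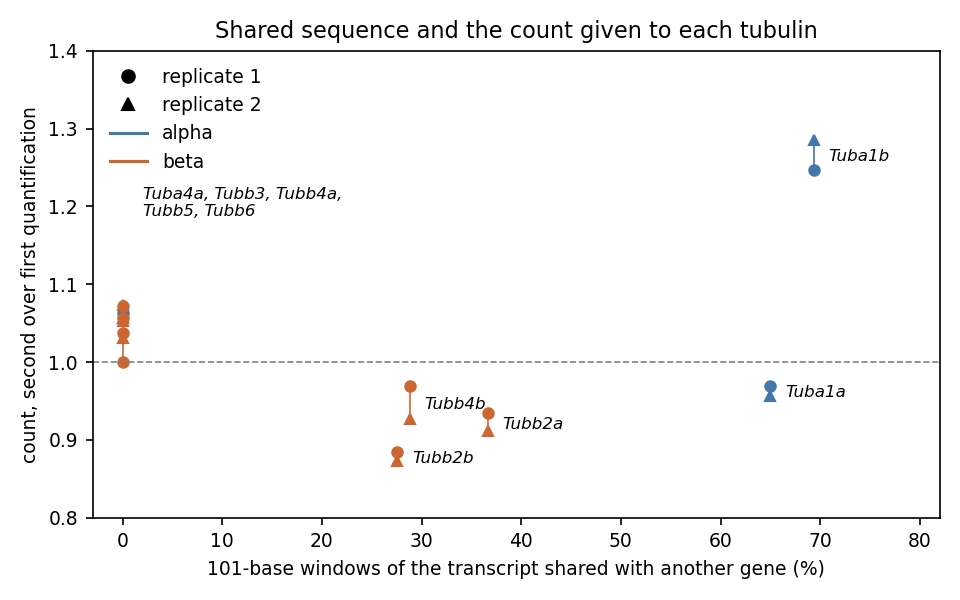
Ratio of the second to the first count (vertical axis) against the percentage of 101-base windows shared with another gene (horizontal axis) for the 10 tubulins, circles for replicate 1 and triangles for replicate 2. Tuba1b is at 1.25 and 1.28, the other 4 genes with shared windows lie below 1, and the 5 genes with none lie between 1.00 and 1.07.

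On the TPM scale no tubulin differed by 1.5-fold in both libraries between the quantifications. Of all 18265 genes tested, 6.48% did. In replicate 2 alone, Tuba1b had 396 TPM in the second, against 258 in the first, and Tuba4a 419, against 276, ratios of 1.54 and 1.52. In replicate 1 these ratios were 1.04 and 1.29. The second tables gave protein-coding genes 46.4% and 66.2% of TPM in replicates 1 and 2, against 49.3% and 50.6% in the first, and the median protein-coding gene had a ratio of 0.903 and 1.27. Centred on that median, the tubulins lay between 0.866 and 1.42 in replicate 1 and between 0.867 and 1.21 in replicate 2, none past 1.5-fold in both, beside 6.43% of all genes. The summed level was 1931 and 2796 TPM in the second, against 2079 and 2170 in the first. Rescaled over protein-coding genes alone, it was 4158 and 4224 in the second, against 4221 and 4286 in the first.

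The make-up of each family shifted with the table. By the second quantification Tuba1a held 36.1% ± 2.20 of alpha TPM, Tuba4a 34.8% ± 3.93 and Tuba1b 29.1% ± 1.73. Tuba4a stood above Tuba1a in replicate 1 and below it in replicate 2. Of the 351 second TPM of Tuba4a in replicate 1, 92.9 belonged to the 346-base transcript Tuba4a-207, which had 0 in replicate 2. The count of Tuba4a had a ratio of second to first of 1.06 in both libraries. The order of the beta genes by mean was the same in both tables, with Tubb2a at 23.2% ± 0.632 and Tubb4a at 22.3% ± 0.766 of beta TPM in the second. Those 2 changed places between the animals there. The beta share of all 10 was 51.7% and 53.2% in the second, against 55.5% and 55.4% in the first. Tubb2a stood 2.85 and 3.36 times above Tubb2b in the second, against 3.75 and 4.23 times in the first. Counts of both were lower in the second, by ratios of 0.934 and 0.911 for Tubb2a and 0.884 and 0.873 for Tubb2b. Of the 82.7 and 101 second TPM of Tubb2b, 29.0 and 30.6 belonged to Tubb2b-202, a noncoding transcript of 430 bases. For Tuba1a over Tuba1b the ratio was 1.24 in both libraries in the second, against 1.61 and 1.68 in the first. For Tubb4a over Tubb4b, which share no 101-base window with each other, it was 1.68 and 1.93, against 1.59 and 1.79.

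**Figure D4:**
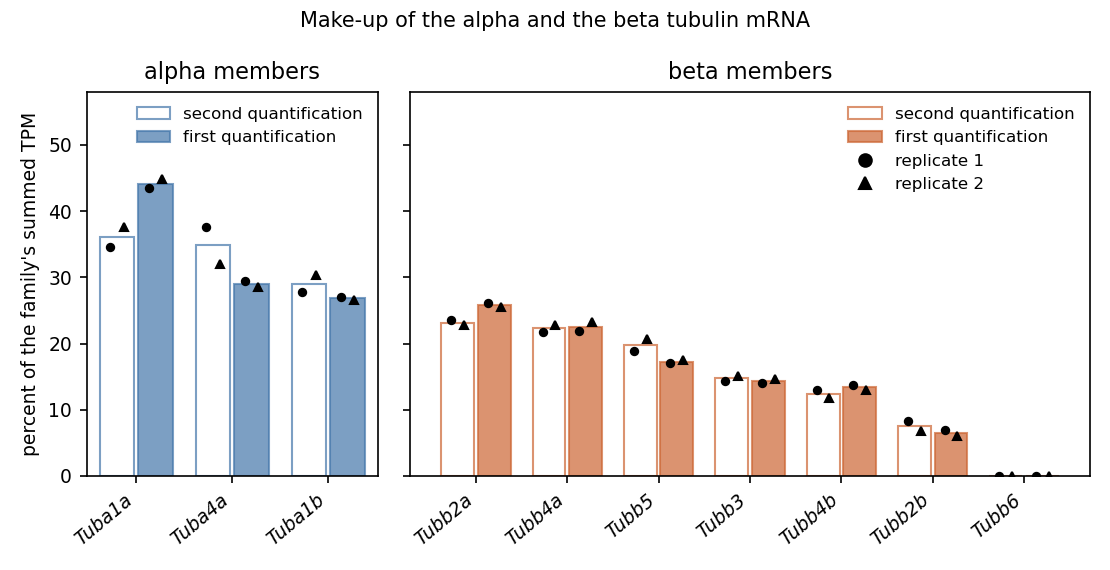
Percentage of the family's summed TPM (vertical axis) held by each alpha (left) and beta (right) member (horizontal axis), open bars for the second and filled bars for the first quantification. Bars are means of 2 animals, circles replicate 1 and triangles replicate 2. Tuba1a leads the alpha family with 36.1% in the second quantification and 44.1% in the first, and Tubb2a the beta family with 23.2% and 25.8%.

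The members carry 25 annotated transcripts, and 3 genes have a single one. By the first tables, 1 transcript held at least 92.8% of the gene in both libraries for every member except Tuba4a. In Tuba4a, Tuba4a-201 held 81.9% and 82.5% and Tuba4a-206 held 11.4% and 13.0%. Tuba4a-201 is annotated with an incomplete coding sequence. The tail above was read from Tuba4a-202, the most abundant transcript with a complete coding sequence, which held 2.12% and 2.20%. Exons of Stk16 on the opposite strand cover 635 bases of Tuba4a-201, and Stk16 had 36.3 and 38.1 TPM. The sources used here do not say whether counting used the strand. In the first tables Tuba4a had 8806 and 9826 expected counts with a posterior SD of 0, and Stk16 had 697 and 802 counts. The first quantification thus reported no uncertainty in assigning the reads of Tuba4a. Any effect of the overlap on the second was not tested.

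The second tables gave more of Tuba4a, Tubb2b and Tubb5 to shorter transcripts. Tuba4a-201 held 48.7% and 55.9% of Tuba4a there, Tuba4a-206 held 17.3% and 29.3%, and Tuba4a-207, of 346 bases, held 26.5% in replicate 1 and 0% in replicate 2. Its second count was 240 and 0, over an effective length of 111 and 154 bases, so 92.9 of the 351 second TPM of Tuba4a in replicate 1 rest on it. Tubb2b-202, a noncoding transcript of 430 bases, held 35.1% and 30.4% of Tubb2b in the second, against 2.53% and 0% in the first. Tubb5-204, a retained-intron transcript, held 20.4% and 32.9% of Tubb5 in the second, against 1.24% and 6.26% in the first. For the other members the leading transcript kept at least 87.6% in both tables.

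Between the animals the tubulins were close on TMM-scaled counts. None of the 10 differed by 1.5-fold, beside 10.7% of the 18274 genes that averaged at least 10 counts and 0.628% of the 5253 that averaged at least 1000, as 9 of the 10 did. Log2 ratios of replicate 1 over replicate 2 ran from -0.10 to 0.16, with 5 above 0 and 5 below, and a median size of 0.06, beside 0.07 over the 5253 genes. The largest was that of Tubb2b, 1.12-fold higher in replicate 1, with a 95% counting interval of 1.06 to 1.18. Tubb4a lay at the other end among the abundant members, at 0.935 (0.910 to 0.961). Tubb6, on 19 and 23 counts, had a ratio of 0.934 with an interval of 0.478 to 1.78, so a difference of 1.5-fold was not detectable at this depth. These intervals are exact binomial ones and cover counting error only. On the second tables' TPM as deposited, a measure added after the values were seen, 6 of the 10 (Tuba1a, Tuba1b, Tubb3, Tubb4a, Tubb5 and Tubb6) were lower in replicate 1 by 1.5-fold, beside 44.4% of the 18265 genes tested. Once those tables were rescaled over protein-coding genes alone, none of the 10 was, beside 8% of the same genes. The direction of single members depended on the scaling, since 5 of 10 ratios were above 0 with TMM, 6 with DESeq2 size factors and 8 with spike-ins, where the median of all genes lay at 0.06.

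Log2 ratios of the partner genes ran from -1.32 to 0.72. Their lists hold genes that fold, modify and cut tubulin, and also the other tubulin genes, the gamma-tubulin ring complex and Ttc5. Of 73 genes in 11 lists, 66 averaged at least 10 counts, and of these 2 were higher and 1 lower in replicate 1 by 1.5-fold, which is 4.55% of the 66, beside the 10.7% of all genes. All 3 belong to the glutamylases and glycylases, which add side chains to the tails shown above, and all were low. Ttll13 had 32 and 21 counts and Ttll9 had 23 and 16, and the 95% counting intervals of their ratios, 0.957 to 3.12 and 0.817 to 3.27, include 1. Ttll8 had 11 and 34 counts, with an interval of 0.166 to 0.734. The highest gene of that list was Ttll7, a polyglutamylase of neurons, at 78.8 and 86.3 TPM, and Ttll2 was at 0 counts in both. Among the deglutamylases, which trim those chains, Agtpbp1 led at 152 and 168 TPM and Agbl1 was lowest at 0.21 and 0.22 TPM.

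**Figure D5:**
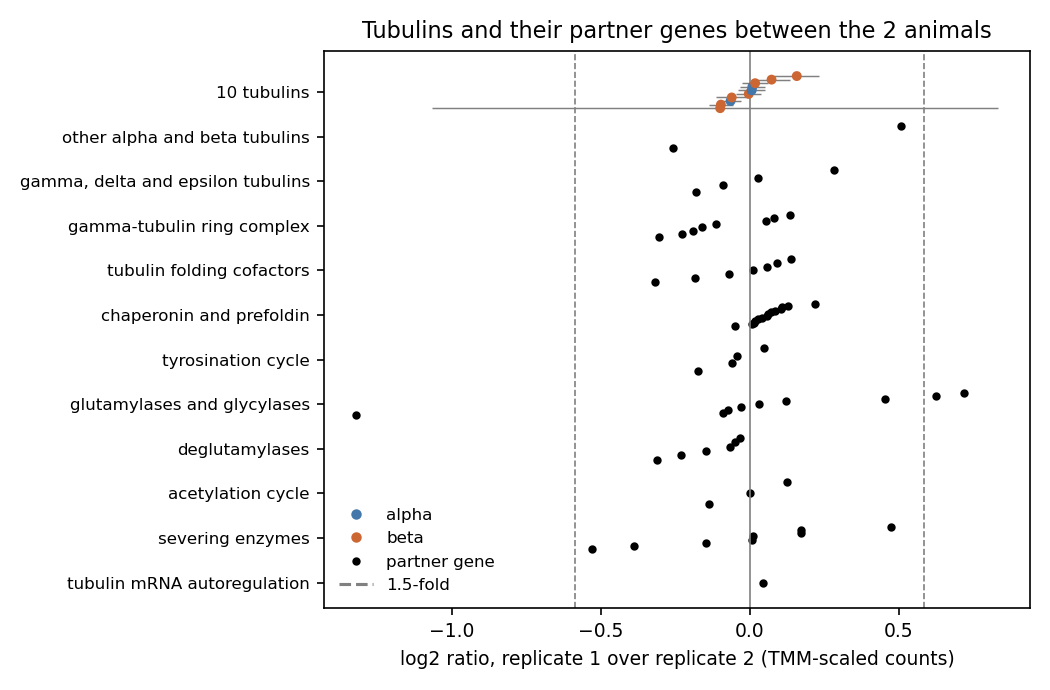
Log2 ratio of replicate 1 over replicate 2 on TMM-scaled counts (horizontal axis) for the 10 tubulins, with 95% counting intervals, and for 66 partner genes. Rows (vertical axis) are the 10 tubulins and the partner lists, which include other tubulin genes. Dashed lines mark 1.5-fold. The 10 tubulins lie between -0.10 and 0.16, the long interval is that of Tubb6, and 3 partner genes lie outside the lines.

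Nascent tubulin is folded by prefoldin and the chaperonin CCT, then joined into dimers by the cofactors TBCA to TBCE. The 14 chaperonin and prefoldin genes summed to 1010 and 1023 TPM, from Pfdn5 at 205 and 218 TPM down to Pfdn4 at 10.8 and 9.82 TPM. The 7 cofactor genes ran from Tbcb at 62.4 and 56.6 TPM to Tbcc at 11.7 and 12 TPM. Ttl, the ligase that restores the terminal tyrosine, had 27.3 and 29.0 TPM, and Vash2, a subunit of the enzyme that removes it, was lowest of that cycle at 1.10 and 1.39 TPM. In the acetylation cycle of alpha tubulin, the deacetylase gene Sirt2 had 60.2 and 60.6 TPM and the deacetylase gene Hdac6 16.8 and 22.4 TPM. The severing list ran from Katnal1, a katanin subunit gene, at 35.0 and 34.2 TPM to Fignl1 at 0.47 and 0.40 TPM, and the gamma-tubulin ring complex from Mzt1 at 30.7 and 29.7 TPM to Nedd1 at 1.28 and 1.88 TPM.

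Markers of neurons and glia were found in both libraries. The marker lists are by cell type and not by brain region, so they cannot tell cortex from other brain tissue. Summed TPM was 2737 and 2925 for 6 pan-neuronal genes, 1149 and 1190 for 6 astrocyte genes, 1723 and 1803 for 6 genes of mature oligodendrocytes and 102 and 108 for 5 microglial genes. The 4 immature neuron markers summed to 436 and 459 TPM, of which Stmn1 alone gave 415 and 435, while Dcx had 9.19 and 12.4, Sox11 6.93 and 5.41 and Neurod1 4.76 and 6.10. The 4 cycling cell markers summed to 1.63 and 1.58 TPM. Choroid plexus markers set the libraries apart, with 738 TPM in replicate 1, against 8.24 in replicate 2 over 5 genes, all 5 (Ttr, Kl, Kcnj13, Clic6 and Folr1) past 1.5-fold and none at 0. Ttr alone had 711 and 2.40 TPM. Blood markers summed to 577 and 414 TPM with 2 of 5 past 1.5-fold higher in replicate 1 (Hba-a2 and Alas2), and ependymal ones to 12.7 and 11.6 TPM with 2 of 4 (Foxj1 and Ccdc153). Gpr17 of oligodendrocyte precursors was also higher and Top2a of cycling cells lower in replicate 1 by that fold. Tuba1c, at a log2 ratio of 0.51 by the first quantification, had the highest ratio among tubulin genes averaging at least 10 counts. Its posterior SD was 6.70% and 7.76% of its count, and it matched 48.4% of the 101-base windows of Tuba1b. In the second it had 593 and 498 estimated counts, against 861 and 680 in the first. Its second TPM was 14.9 and 17.7, or 32.1 and 26.8 rescaled over protein-coding genes. The parts of other tissue and of read assignment in the difference between the animals were not tested.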

How the data were processed

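Total RNA of left cerebral cortex was measured in 2 libraries, 1 per animal, of 1 group. Per the file headers and the notes deposited with the files, the authors deposited gene and transcript tables on mm10 with GENCODE M21, derived from alignments to the transcriptome, which give expected counts with their posterior SD, TPM and each transcript's percent of its gene. These are called the first quantification. For each library the authors also deposited a transcript table made from the reads, with estimated counts and TPM, and these were summed per gene. Its effective lengths differed between the libraries, at 1555 and 1484 bases for Tuba1a-201 in replicates 1 and 2, against 1703 in both in the first. Whether this bears on differences between the libraries in the second quantification was not tested. The programs behind both, and whether counting used the strand, were not stated in the sources used here. Deposited FPKM values were not used.

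The 10 members were found by symbol in the second tables and joined by gene identifier to the first. Library sizes, from expected counts rounded to whole numbers, were 24688669 and 27440152 without spike-ins, tRNA entries and 356 genes for ribosomal RNA. Ratios between animals divide replicate 1 by replicate 2, as log2 of TMM-scaled CPM (edgeR 4.0.16, prior count 2), for genes averaging 10 counts or more. A ratio past 1.5-fold was counted and not tested, since each animal has 1 library. Between quantifications, TPM ratios are second over first and had to pass 1.5-fold in both libraries. Count intervals are exact 95% binomial intervals, and a count of 0 allows up to 3 counts. Both cover counting error only. The ratio calculation was tested on simulated data with an assumed coefficient of variation of 0.1. Of 200 genes doubled in replicate 1, 192 passed 1.5-fold, and so did 1018 of 18084 unchanged genes in either direction.

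Members and gene lists were chosen with earlier results of these data known. Named were the 10 members, the highest of the other tubulin genes, pseudogenes with a mean of at least 10 counts, the highest and lowest gene of each list with those past 1.5-fold, the genes next in level to the highest alpha and beta member, and transcripts holding at least 5% of their gene or moving by at least 20 percentage points between quantifications. Other transcripts and genes named with values were chosen after these were seen. Shared windows of 101 and of 31 bases were sought in all annotated transcripts of GENCODE M21 in the same orientation. Coding sequences were aligned globally with Biopython 1.88. Sequences on chromosome 18, where Tubb6 lies, are not printed, and the coding ends of some alpha genes are not reported here. Alternatives were DESeq2 1.42.0 size factors, spike-in scaling, a prior count of 0.5, no filter, protein-coding TPM alone, counts in place of TPM, other sets of genes and transcripts, the second quantification, and leaving out 1 animal at a time. Calculations ran in Python 3.11.15 (scipy 1.17.1, numpy 2.4.6, pandas 2.3.3) and R 4.3.3.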

Additional observations from a re-analysis of the deposited data

How the results depend on the processing

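The summed level of the 10 tubulins was 2363 TPM by the second quantification and 4254 TPM rescaled over protein-coding genes alone, against 2124 TPM as reported. With either animal alone it ran from 2079 to 2170 TPM. The beta share was 52.5% by the second quantification, 57.6% on expected counts not divided by length, 54.7% over all annotated alpha and beta genes and 55.4% on protein-coding transcripts alone, and 49.9% with pseudogenes added, a setting chosen after the values were seen, against 55.4% as reported. It ran from 55.4% to 55.5% with either animal alone. No tubulin differed by 1.5-fold between animals under 5 alternatives on scaled counts (DESeq2 size factors, spike-in scaling, prior count 0.5, no filter, TMM-scaled estimated counts of the second quantification). On the second quantification's TPM, added after the values were seen, 6 did as deposited and 0 after rescaling over protein-coding genes. Between quantifications the count was 0 with counts in place of TPM, with centring and with no filter, and from 0 to 2 with either library alone. The 2, in replicate 2, were Tuba1b and Tuba4a. Of the 10 single levels on TPM as deposited, 8 moved by more than the SD of the animals in the second quantification. This count includes the shift of the whole second quantification, a median protein-coding ratio of 0.903 and 1.27 in replicates 1 and 2. Tuba1a and Tubb4a, which did not move by that rule, had the widest SDs, 22.4 and 18.5 TPM. No paired analysis was possible because both libraries belong to 1 group.

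With 2 animals, an SD rests on 1 difference and no condition is compared. Reads of near-identical copies limit Tuba1a, Tuba1b, Tuba1c, Tubb2a, Tubb2b and Tubb4b, and depth limits Tubb6. Alleles were not told apart in these tables.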
